A study of Homo sapiens with 49 samples.

Results

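The AP-1 subunits described here are 8 genes: the FOS family members FOS, FOSB, FOSL1 and FOSL2, the JUN family members JUN, JUNB and JUND, and ATF3. They were chosen by symbol, with no measured value in the rule, and all 8 were found in the RNA tables of both experiments, among 23713 entries each, or 23621 without the spike-in RNAs. Of the 8 genes, 6 had a mean of at least 1 FPKM (fragments of RNA scaled to transcript length and to the size of the library) in SHEP-21N cells and 6 in BE(2)-C cells, and these entered the tests with 11867 and 11433 genes in all. FOS and FOSB fell under that level in SHEP-21N cells, and FOSB and FOSL1 in BE(2)-C cells. Their values are given without that filter.

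AP-1 is a transcription factor made of pairs of basic leucine zipper proteins. JUN proteins pair with each other or with a FOS protein, while FOS proteins need a JUN partner, and the pairs bind the element TGANTCA or the related TGANNTCA. FOS, FOSB, JUN, JUNB and ATF3 are known as early response genes that serum, stress or MAP kinase signalling switches on within a short time. FOSL1 and FOSL2 lack the strong activation domain of FOS and are known for longer-lasting expression, and in neuroblastoma FOSL1 and other AP-1 genes are known to be high in cells of the mesenchymal type.

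Both models are human neuroblastoma lines. SHEP-21N cells hold a MYCN transgene under TET-off control, and doxycycline at 0.2 µg/ml was used to silence it; 2 libraries were made at 0 h and 3 each after 2, 4, 6, 8, 16 and 24 h. BE(2)-C cells, an adrenergic-type line with amplified MYCN of its own, held a doxycycline-inducible short hairpin RNA against TWIST1; 3 libraries had no doxycycline and 3 each were made after 3, 6, 12, 24 and 48 h at 0.5 µg/ml. These 38 libraries of 49 listed samples were used, and the other 11 (BE(2)-C cells given DMSO or the bromodomain inhibitor JQ1 at 1 µM) were not analysed here. All comparisons with 0 h in SHEP-21N cells share the same 2 control libraries, and those with no doxycycline in BE(2)-C cells the same 3. No group that received doxycycline without the transgene or the hairpin was analysed here. No label says that the replicates were separate cultures, so each p-value measures the spread between these libraries.

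Libraries are named by the number at the end of their column. The authors deposited each experiment on 2 scales, as unnormalised FPKM and as FPKM rescaled to spike-in RNA that was added per cell number, and both are given below because they differ. In BE(2)-C cells the spike-in total of the unnormalised table was 21429 to 36863 FPKM without doxycycline and 57913 to 140361 at 48 h, so the rescaled values of nearly every gene fell there. BE(2)-C library 1 without doxycycline stood apart. Its log2 values correlated less with the other 17 libraries (mean r of 0.955 across genes, against 0.962 or more for every other library) and its 12 mesenchymal neuroblastoma markers summed to 1391 unnormalised FPKM, against 875 and 804 in its 2 partners. Changes of the subunits that rest on it are given with and without it. Gene lists, other named genes, summed FPKM and group means of ratios include it throughout. In SHEP-21N cells the 8, 16 and 24 h libraries carry index sequences that the labels also give to 0, 2 and 4 h libraries. Libraries with the same index cannot have been in 1 sequencing pool, so between these 2 sets of times time and pool cannot be told apart. The indices do not show how the other libraries were pooled. The steps from 8 to 16 h and from 16 to 24 h compare libraries with no index in common. Unnormalised MYCN stood at 715 and 742 FPKM at 0 h and at 15.4 to 15.6 at 24 h in SHEP-21N cells, and unnormalised TWIST1 at 57.9 to 74.6 without doxycycline and at 17.7 to 18.9 at 48 h in BE(2)-C cells.

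The promoters of the genes that the results turn on are shown first, because JUN, FOS and ATF3 are known for promoters that respond to AP-1 and its relatives. Sequences are those of RefSeq on build GRCh38.p14, from 250 bases before the annotated start up to it, on the gene's own strand and from 5′ to 3′; the deposited values were made on hg19, and no coordinate was converted. Capitals mark the AP-1 and ATF type element TGANNTCA in the first 3 and the TATA box TATAAA in the last 2. They come from chr1:58784048-58784297 (JUN, minus strand), chr19:18281623-18281872 (JUND, minus strand), chr1:212565157-212565406 (the upstream of 2 ATF3 starts, plus strand), chr14:75278578-75278827 (FOS, plus strand) and chr19:12791236-12791485 (JUNB, plus strand).
JUN: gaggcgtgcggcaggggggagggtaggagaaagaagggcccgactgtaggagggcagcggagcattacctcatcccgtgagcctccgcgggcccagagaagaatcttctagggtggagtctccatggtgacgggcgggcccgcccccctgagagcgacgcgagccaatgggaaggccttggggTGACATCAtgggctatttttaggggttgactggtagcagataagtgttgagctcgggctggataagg
JUND: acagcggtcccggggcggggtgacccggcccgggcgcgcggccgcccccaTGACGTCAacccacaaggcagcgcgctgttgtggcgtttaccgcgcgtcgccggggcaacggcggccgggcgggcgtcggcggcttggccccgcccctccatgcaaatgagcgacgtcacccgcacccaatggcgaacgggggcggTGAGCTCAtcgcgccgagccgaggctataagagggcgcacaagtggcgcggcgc
ATF3: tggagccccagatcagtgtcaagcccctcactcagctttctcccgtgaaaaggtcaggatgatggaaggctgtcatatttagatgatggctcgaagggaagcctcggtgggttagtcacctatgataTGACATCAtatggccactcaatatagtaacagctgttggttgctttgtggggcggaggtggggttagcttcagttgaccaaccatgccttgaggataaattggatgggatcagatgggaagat
FOS: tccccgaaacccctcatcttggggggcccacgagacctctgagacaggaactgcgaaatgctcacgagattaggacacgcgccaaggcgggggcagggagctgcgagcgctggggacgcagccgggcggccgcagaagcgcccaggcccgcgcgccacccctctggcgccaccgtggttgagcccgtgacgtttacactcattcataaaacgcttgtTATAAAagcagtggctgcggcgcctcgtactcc
JUNB: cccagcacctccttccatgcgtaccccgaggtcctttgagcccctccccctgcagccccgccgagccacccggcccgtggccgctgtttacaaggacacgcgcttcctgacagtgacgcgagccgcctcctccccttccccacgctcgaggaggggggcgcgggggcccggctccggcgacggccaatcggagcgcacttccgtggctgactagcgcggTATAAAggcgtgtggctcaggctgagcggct
JUN held 1 match, TGACATCA, at -67 to -60 from the start, JUND held TGACGTCA at -200 to -193 and TGAGCTCA at -54 to -47, and ATF3 held TGACATCA at -123 to -116. Counted over windows that run from 250 bases before to 50 after the start, 7 of the 8 genes had an entry, with 8 starts in all, and FOSL1 is named only. TGANNTCA, searched on both strands, was found in 3 of these 7 genes and in 11.5% of all 35116 promoters of that length. The 7-letter element TGANTCA was found in 1 of 7, in FOSL2 at 5 to 11 after the start, and in 7.71% of all promoters. The MYC element CACGTG was found in 0 of 7 and in 7.26% of all, and the looser CANNTG, which TWIST1 and other basic helix-loop-helix proteins bind and which also takes in CACGTG, in 5 of 7 and in 68.7% of all. TATAAA was found in 4 of 7 genes and in 11.5% of all. It lay at -33 to -28 in FOS, -30 to -25 in FOSB and -31 to -26 in JUNB. At the downstream ATF3 start it lay much further away, at -230 to -225. A match describes the letters of these windows and is no measured binding site.

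Before doxycycline the order of the AP-1 subunits by level differed between the 2 models, with FOSL1 furthest apart in rank. On the rescaled scale in SHEP-21N cells FOSL1 was the most abundant at 129 ± 16.6 FPKM (mean ± SD, n = 2), followed by JUND at 50.2 ± 8.87, JUNB at 28.5 ± 5.59, JUN at 26.9 ± 3.93, FOSL2 at 21.5 ± 2.78, ATF3 at 6.72 ± 0.0336, FOS at 1.63 ± 0.0957 and FOSB at 0.343 ± 0.0566. Of the neighbours in this order JUNB and JUN overlapped, and the others did not. In BE(2)-C cells JUND led at 108 ± 3.79 FPKM (n = 3), followed by JUNB at 70.3 ± 13.0, JUN at 19.3 ± 3.95, FOSL2 at 4.69 ± 2.22, FOS at 3.84 ± 1.71, ATF3 at 2.44 ± 0.436, FOSB at 0.175 ± 0.0436 and FOSL1 at 0.126 ± 0.0361. There FOSL2 overlapped FOS, FOS overlapped ATF3 and FOSB overlapped FOSL1. Both orders were the same on the unnormalised scale, and FOS and ATF3 no longer overlapped in BE(2)-C cells. FOSL1, the first of SHEP-21N cells, was thus the last of BE(2)-C cells, where 2 of 3 libraries listed it at 0 on the unnormalised scale. The tables of the 2 experiments were rescaled separately, so levels are ordered within a model and no test was made between models.

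**Figure D1:**
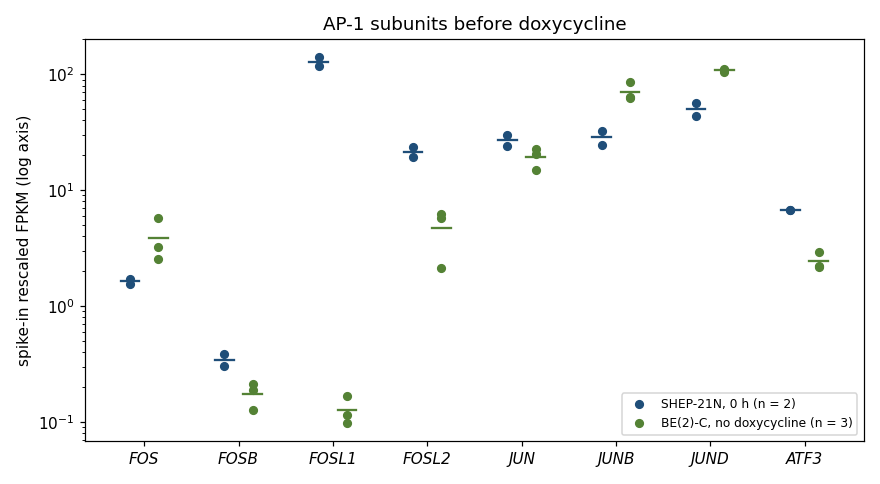
Levels of the 8 AP-1 subunits before doxycycline, as spike-in rescaled FPKM on a log axis, in SHEP-21N cells (2 libraries) and BE(2)-C cells (3 libraries). Each point is 1 library and each bar a group mean. FOSL1 lies above every other subunit in SHEP-21N cells, at 117 and 141 FPKM, and at the bottom in BE(2)-C cells, where rescaled values near 0.1 stand for 0 or nearly 0 in the unnormalised table.

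In SHEP-21N cells 5 of the 6 tested subunits were lower at 24 h of doxycycline, which shuts off MYCN there, than at 0 h: FOSL1, ATF3, JUNB, JUN and FOSL2. Over all tested genes 32.4% were called lower and 6.16% higher at that time at an adjusted p under 0.05 (limma, Benjamini-Hochberg over all tested genes). The subunits' median log2 change was -1.05, beside -0.31 for all tested genes. JUND was the 1 tested subunit not called. Without 0 h library 2 the calls of FOSL2, JUN and JUNB were lost. Any fit without a 0 h library, here and below, keeps only 1 library at 0 h. The share of all genes called in such a fit is not given, so a lost call is not read as particular to the subunits. With all libraries the same 5 were called lower on the unnormalised scale, where 36.4% of genes were lower and 28.9% higher. Over the whole course, 5 of 6 subunits passed a test of any change on the rescaled scale, which 31.0% of genes passed, and 6 of 6 on the unnormalised scale, which 81.9% passed. Bulk RNA does not tell fewer cells with a transcript apart from less transcript per cell.

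**Figure D2:**
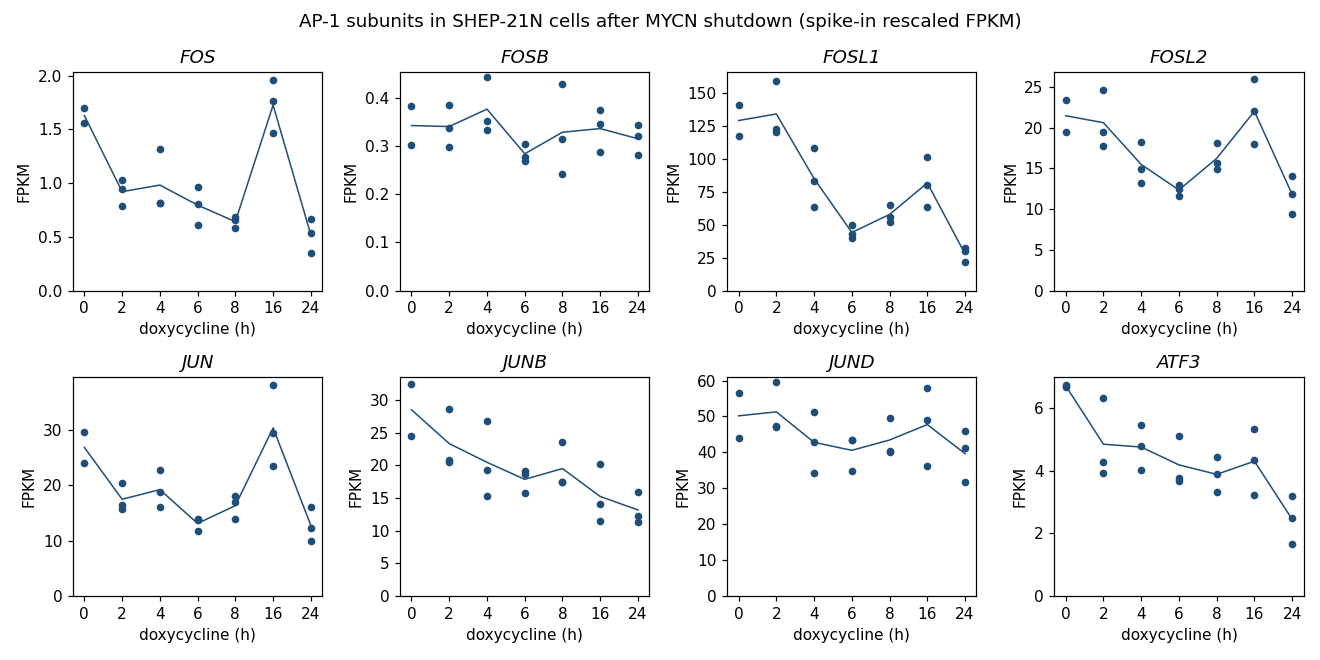
Spike-in rescaled FPKM of each AP-1 subunit in SHEP-21N cells at 0, 2, 4, 6, 8, 16 and 24 h of doxycycline, 1 panel per gene. Points are libraries, the line joins the means, and the times are evenly spaced and not to scale. FOSL1 drops from 117 and 141 FPKM to between 21.8 and 31.9, while JUN stands at 23.5 to 38.2 at 16 h and at 9.89 to 16.0 at 24 h.

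FOSL1, the FOS family protein known for its part in invasive growth, fell most among the subunits. Its rescaled level was 117 and 141 FPKM at 0 h, 159, 120 and 122 at 2 h, 83.2, 63.4 and 108 at 4 h, and 42.8, 49.8 and 39.5 at 6 h. It then stood at 56.2, 64.9 and 52.1 at 8 h, 63.4, 101 and 79.9 at 16 h, and 31.9, 29.8 and 21.8 at 24 h. From 4 h on every library lay below both libraries of 0 h, and the 24 h libraries lay below those of all other times. The log2 change from 0 h was -1.53 (SE 0.236, adjusted p = 0.00126) at 6 h, -1.14 (SE 0.236, adjusted p = 0.00866) at 8 h, -0.67 (adjusted p = 0.0803) at 16 h and -2.18 (SE 0.236, adjusted p = 1.83e-05) at 24 h. The 24 h call held with each library left out in turn, with an adjusted p of at most 0.0016. The 6 h and 8 h calls were lost without 0 h library 2. From 16 to 24 h FOSL1 fell by 1.51 on the log2 scale (SE 0.211, adjusted p = 0.00035), and from 8 to 24 h by 1.04 (adjusted p = 0.0238). It was the 1 subunit called in that last step, where 1.33% of genes were called lower, and the call was lost when any 1 of 4 libraries was left out.

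FOSL2, the other FOS-related antigen, fell at 6 h, was back at its starting level at 16 h and was lower again at 24 h. It stood at 19.5 and 23.4 rescaled FPKM at 0 h, 13.0, 12.5 and 11.6 at 6 h, 18.01, 26.0 and 22.0 at 16 h, and 14.1, 11.9 and 9.46 at 24 h. The 6 h and the 24 h libraries lay below both of 0 h, and the 16 h libraries overlapped them. The log2 change was -0.75 (SE 0.188, adjusted p = 0.0211) at 6 h, 0.025 (adjusted p = 0.957) at 16 h and -0.82 (SE 0.188, adjusted p = 0.00356) at 24 h, and it fell by 0.85 from 16 to 24 h (adjusted p = 0.00642). The 24 h call was lost without 0 h library 2 (adjusted p = 0.0838), and the 6 h call without either 0 h library or without 6 h library 2.

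FOS, the classic early response gene, was near 1 FPKM in SHEP-21N cells. It stood at 1.70 and 1.56 rescaled FPKM at 0 h, 0.685, 0.653 and 0.586 at 8 h, 1.46, 1.76 and 1.96 at 16 h, and 0.664, 0.354 and 0.539 at 24 h. All libraries of 2, 4, 6, 8 and 24 h lay below both of 0 h, while those of 16 h overlapped them. In the test with no filter on low values (19003 genes) its log2 change was -0.55 (SE 0.116, adjusted p = 0.0188) at 6 h. It was -0.68 (SE 0.116, adjusted p = 0.0069) at 8 h, 0.049 (adjusted p = 0.863) at 16 h and -0.80 (SE 0.116, adjusted p = 0.000554) at 24 h. In that test 3.42% of genes were called lower at 6 h, 2.17% at 8 h and 18.6% at 24 h. FOS rose by 0.73 on the log2 scale from 8 to 16 h (SE 0.104, adjusted p = 0.00126), where 2.08% of genes were called higher, and fell by 0.84 from 16 to 24 h (SE 0.104, adjusted p = 0.000286), where 4.74% were called lower. FOSB, its close relative, stayed between 0.242 and 0.444 FPKM in all 20 libraries and was not called at any time in that test.

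JUN, the main partner of the FOS proteins, was lower at 6 and 24 h and rose between 8 and 16 h. Its rescaled level was 24.1 and 29.6 FPKM at 0 h, 13.9, 13.7 and 11.8 at 6 h, 17.0, 18.04 and 14.0 at 8 h, 23.5, 38.2 and 29.5 at 16 h, and 16.0, 12.3 and 9.89 at 24 h. The 16 h libraries overlapped those of 0 h and lay above all of 8 h and of 24 h. The log2 change from 0 h was -0.98 (SE 0.211, adjusted p = 0.0118) at 6 h, -0.69 (adjusted p = 0.0531) at 8 h, 0.15 (adjusted p = 0.696) at 16 h and -1.04 (SE 0.211, adjusted p = 0.00171) at 24 h. The step from 8 to 16 h was a rise of 0.84 on the log2 scale (SE 0.189, adjusted p = 0.0207), the 1 subunit called where 2.01% of genes were called higher. The step from 16 to 24 h was a fall by 1.19 (SE 0.189, adjusted p = 0.00117), with 4 of 6 subunits lower (FOSL1, FOSL2, JUN and ATF3) where 7.63% of genes were. The rise was lost when 8 h library 0 or 2 or 16 h library 1 or 2 was left out, the 24 h call without 0 h library 2 (adjusted p = 0.0538), and the 6 h call without 0 h library 2 or 6 h library 2.

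Unnormalised libraries of 1 time lay closer together and JUN at 16 h stood out more. Unnormalised JUN was 23.3 and 25.5 FPKM at 0 h, 15.7, 15.1 and 14.8 at 8 h, 26.8, 29.8 and 26.6 at 16 h, and 14.6, 13.7 and 13.6 at 24 h. All 16 h libraries lay above both of 0 h. The rise from 8 to 16 h was 0.82 on the log2 scale (SE 0.0593, adjusted p = 9.68e-08), with 3 of 6 subunits called higher (FOSL1, FOSL2 and JUN) where 15.0% of genes were. The fall from 16 to 24 h was by 0.94 (SE 0.0593, adjusted p = 3.86e-08), with 4 of 6 called lower where 18.6% of genes were. JUN was the 1 subunit called higher than 0 h at any time, at 16 h (0.18, SE 0.0663, adjusted p = 0.0358), where 23.8% of genes were called higher. That call was not made on the median-centred scale (0.17, adjusted p = 0.0858) or on the rescaled scale.

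JUNB, which in many settings opposes JUN, did not return at 16 h. Rescaled values were 24.6 and 32.5 FPKM at 0 h, 17.4, 23.6 and 17.5 at 8 h, 11.4, 20.2 and 14.1 at 16 h, and 15.9, 12.2 and 11.4 at 24 h. All libraries of 6, 8, 16 and 24 h lay below both of 0 h. The log2 change was -0.89 (SE 0.244, adjusted p = 0.0321) at 16 h, the 1 subunit called where 3.04% of genes were called lower, and -1.06 (SE 0.244, adjusted p = 0.00369) at 24 h. The 16 h call was lost without either 0 h library or without 16 h library 0 or 2, and with the replicate number as a block (adjusted p = 0.0595). The 24 h call was lost without 0 h library 2 (adjusted p = 0.0908). From 8 to 16 h JUNB changed by -0.36 on the rescaled scale (adjusted p = 0.618) and by -0.38 on the unnormalised scale (SE 0.116, adjusted p = 0.0233), the 1 subunit called lower in that step where 13.2% of genes were.

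JUND, the subunit known for steady expression, was not called against 0 h at any time on either scale. Its rescaled level was 43.9 and 56.4 FPKM at 0 h, 43.3, 43.5 and 34.9 at 6 h, 36.3, 57.9 and 49.1 at 16 h, and 46.0, 41.3 and 31.6 at 24 h, so that the libraries of 24 h overlapped those of 0 h. The log2 change at 24 h was -0.34 (95% interval -0.80 to 0.13, adjusted p = 0.228), close to the -0.31 of the median gene. Its unnormalised change was -0.059 (95% interval -0.26 to 0.14, adjusted p = 0.588), where the median gene moved by -0.038. JUND passed the test of any change over the course on the unnormalised scale (adjusted p = 0.0418) and not on the rescaled scale (adjusted p = 0.528).

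ATF3, a stress gene whose protein pairs with JUN and often represses, was lower in all later libraries. Rescaled values were 6.70 and 6.75 FPKM at 0 h, 6.35, 4.29 and 3.92 at 2 h, 3.91, 4.43 and 3.32 at 8 h, 3.24, 5.35 and 4.34 at 16 h, and 3.19, 2.49 and 1.66 at 24 h. No later library reached either of the 0 h libraries. The log2 change was -0.67 (adjusted p = 0.0586) at 8 h, -0.56 (adjusted p = 0.104) at 16 h and -1.19 (SE 0.211, adjusted p = 0.000693) at 24 h. The 24 h call held with each library left out in turn, with an adjusted p of at most 0.0189. The fall by 0.63 from 16 to 24 h (adjusted p = 0.0487) was lost when any 1 of 16 of the 20 libraries was left out.

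The order in which the subunits moved depends on the scale. On the rescaled scale 0 of 6 were called lower at 2 h and 0 at 4 h, where 0.0506% and 0.0758% of genes were, then 3 at 6 h (FOSL1, FOSL2 and JUN) where 7.54% of genes were lower and 3.17% higher, and 1 at 8 h (FOSL1) where 3.83% were. On the unnormalised scale JUN was already called at 2 h, at 16.8, 16.1 and 16.5 FPKM beside 23.3 and 25.5 at 0 h (log2 change -0.54, SE 0.0663, adjusted p = 0.000565), where 0.345% of genes were called lower. All 3 libraries of 2 h lay below both of 0 h on both scales. At 4 h 5 subunits were called lower on that scale where 18.1% of genes were, at 6 h 5 where 29.8% were, at 8 h 5 where 29.2% were, and at 16 h 3 (FOSL1, JUNB and ATF3) where 27.5% were. JUN was the 1 of the 6 tested subunits called at 2 h on that scale. Unnormalised FOSL1 at 2 h, at 133, 118 and 129 FPKM, overlapped the 115 and 122 of 0 h. FOS, which was not tested on that scale, stood at 0.775, 0.687 and 0.849 unnormalised FPKM at 2 h beside 1.48 and 1.29 at 0 h, also with no overlap.

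**Figure D3:**
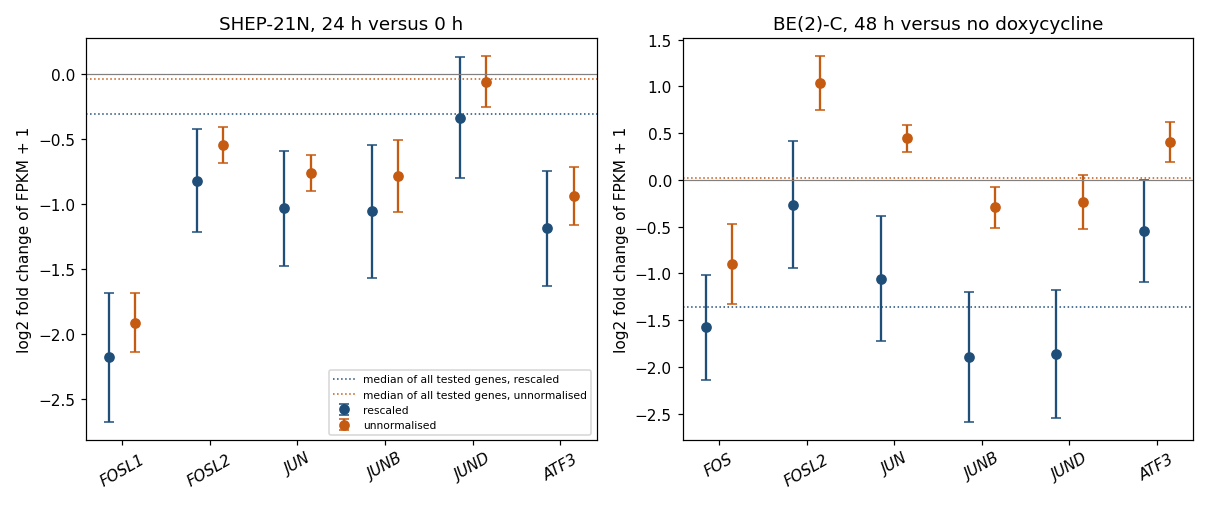
Log2 change of FPKM + 1 of each tested AP-1 subunit at the last time of each course, in SHEP-21N cells at 24 h against 0 h (left) and in BE(2)-C cells at 48 h against no doxycycline (right), on the spike-in rescaled and on the unnormalised scale. Points are limma estimates with 95% intervals and dotted lines are the median change of all tested genes; on both scales FOSL1 lies lowest in SHEP-21N cells, while in BE(2)-C cells JUN is at -1.06 rescaled and at 0.45 unnormalised, and the rescaled median gene is at -1.36.

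Ratios of 2 subunits within a library differed little between the scales, and those of the rescaled table are given. The ratio of FOSL1 to JUND was 2.58 ± 0.125 at 0 h (n = 2) and 0.701 ± 0.0177 at 24 h (n = 3), and that of FOSL1 to FOSL2 fell from 6.00 ± 0.00513 to 2.36 ± 0.132. The groups did not overlap in either ratio, and an exact permutation test of 2 against 3 libraries cannot go below the p of 0.2 that both gave (two-sided; 0.222 adjusted over the 10 ratios tested). JUN to JUND was 0.377 ± 0.0408 at 8 h, 0.636 ± 0.0310 at 16 h and 0.320 ± 0.0258 at 24 h (n = 3 each), while JUNB to JUND was 0.448 ± 0.0246 at 8 h and 0.317 ± 0.0312 at 16 h. From 8 to 16 h the 2 ratios thus moved in opposite directions, each with no overlap and with the smallest exact permutation p that 3 against 3 allow, 0.1 (0.143 adjusted). FOSL1 made up 84.5% and 84.7% of the summed FPKM of the 4 FOS family genes at 0 h and 67.8% to 70.3% at 24 h, and FOSL2 28.04% to 30.03% at 24 h. The summed unnormalised FPKM fell from between 136 and 144 to between 42.3 and 47.1 for the FOS family and from between 90.1 and 102 to between 70.6 and 73.4 for the JUN family.

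**Figure D4:**
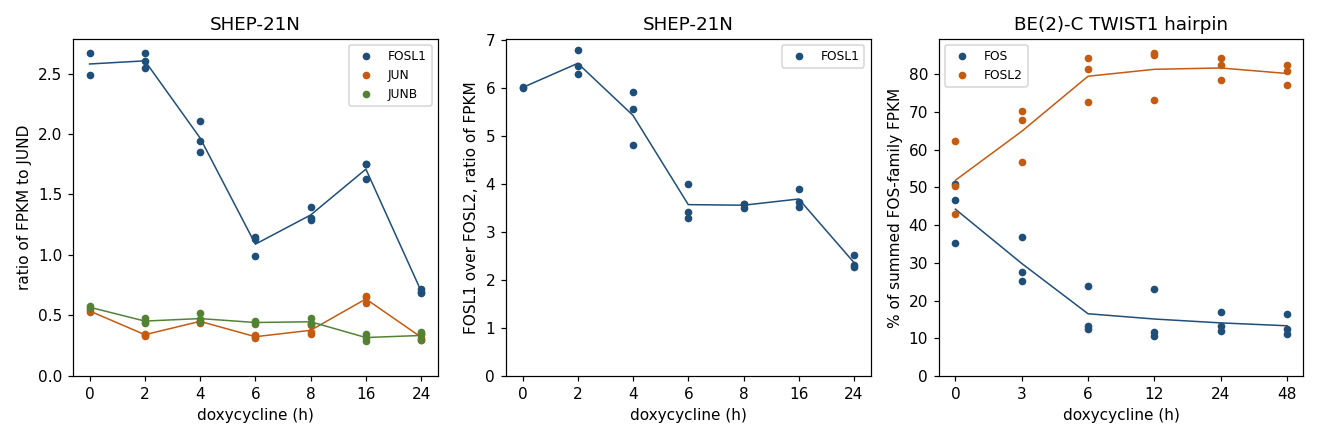
Balance of AP-1 subunits within each library by hours of doxycycline, from rescaled FPKM: ratios of FOSL1, JUN and JUNB to JUND (left) and of FOSL1 to FOSL2 (middle) in SHEP-21N cells, and the percent of the summed FOS family FPKM held by FOS and FOSL2 in BE(2)-C cells (right). Points are libraries, lines join the means, and times are evenly spaced and not to scale; mean JUN to JUND is 0.636 at 16 h and 0.320 at 24 h, and the mean share of FOS goes from 44.2% without doxycycline to 13.3% at 48 h.

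Among the other genes of the AP-1 network the early response genes and textbook targets had larger shares called lower at 6 and 24 h than all genes, while the relatives and the MAP kinase list lay nearer to them. Of 19 tested early response genes (a list that handling of cells can also raise) 10 were called lower at 6 h and 14 at 24 h, with 0 higher, where 7.54% and 32.4% of all genes were lower, and their median log2 change at 24 h was -0.81, beside -0.31 for all genes. KLF2 fell from 10.0 to 2.38 rescaled FPKM at 24 h (log2 change -1.69, adjusted p = 2.63e-05), EGR1 from 4.74 to 1.12 (-1.44) and CTGF from 72.6 to 25.0 (-1.51). Their summed unnormalised FPKM moved with JUN and FOS: it was 744 to 789 at 0 h, 526 to 541 at 8 h, 790 to 833 at 16 h and 505 to 513 at 24 h, and the part of handling in the values of JUN and FOS was not tested. Of 26 tested textbook AP-1 targets 11 were called lower and 0 higher at 6 h, 2 lower and 5 higher at 16 h (where 5.13% of all genes were called higher), and 14 lower and 1 higher at 24 h (median -0.57), against the same shares of all genes. The cell-cycle gene CCND1 fell from 57.3 to 15.3 FPKM at 24 h (log2 change -1.85, adjusted p = 1.20e-05), the urokinase receptor gene PLAUR from 34.9 to 12.3 (-1.44) and SPHK1, which makes sphingosine-1-phosphate, from 17.4 to 5.60 (-1.47).

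Of 18 tested relatives of the same basic leucine zipper class 8 were called lower and 1 higher at 24 h (median -0.37), beside the 32.4% lower, 6.16% higher and median of -0.31 of all genes. BATF3, which also pairs with JUN, fell from 5.06 to 1.28 FPKM (log2 change -1.44, adjusted p = 0.00014), and the small MAF genes MAFK, MAFF and MAFG fell by 1.05, 0.85 and 0.89. ATF2, a JUN partner, rose from 5.18 to 8.00 FPKM (0.53, adjusted p = 0.0187). In the MAP kinase and serum response list 9 of 27 genes were called lower and 2 higher at 24 h, again near the shares of all genes, with a median of -0.11 that lay above theirs. The kinase gene MAP2K3 fell from 72.9 to 27.6 FPKM (-1.38) and SRF, the serum response factor that acts on the FOS promoter, from 37.0 to 16.8 (-1.11, adjusted p = 0.0011), while MAP2K6 rose from 2.80 to 6.16 (0.91, adjusted p = 0.000609). This list split into 10 lower and 13 higher on the unnormalised scale, where 36.4% of all genes were lower and 28.9% higher.

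Of the cell state lists, 3 of 12 tested mesenchymal markers were called higher and 0 lower at 24 h (median 0.22). Of all genes 6.16% were called higher and 32.4% lower there (median -0.31). The summed unnormalised FPKM of the mesenchymal markers went from between 1440 and 1521 at 0 h to between 2469 and 2584. All 3 of 12 adrenergic markers that were tested, GATA2, ISL1 and HAND2, were called lower (median -0.63); 4 of the 12 were at 0 in the unnormalised table at 0 h. Of the epithelial markers the keratin genes KRT8 and KRT18 were tested and not called at 24 h on the rescaled scale. Both were called higher on the unnormalised scale (0.47, adjusted p = 0.000207, and 0.26, adjusted p = 0.0219), where 28.9% of genes were. The summed unnormalised FPKM of the 5 epithelial markers was 868 to 1002 at 0 h, 817 to 910 at 8 h, 1461 to 1619 at 16 h and 1179 to 1235 at 24 h, so that it was highest at 16 h, as JUN was. EPCAM stood at 0.198 unnormalised FPKM or less and CDH1 at 0.0295 or less at these 4 times. No blood, endothelial or glial marker passed the filter. The part of these marker genes in the subunits' changes was not tested.

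The genes whose course over the 6 later times was nearest to a subunit, by the root mean square difference of log2 changes, were named for each subunit called at least at 2 times. For FOSL1 they were CCND1 (0.187), MFSD2A (0.272) and UBE2C (0.272), and for JUN NUAK2 (0.112), CITED2 (0.157) and MARCH4 (0.158). For FOSL2 they were KCNN4 (0.0486), BCAR1 (0.0637) and MYO1E (0.0685), and for JUNB CCDC124 (0.0881), GATA2 (0.0920) and RBPMS2 (0.0934). These courses come from the same 20 libraries and the same control, so likeness is a description.

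In BE(2)-C cells FOS was lower after induction of the TWIST1 hairpin than without doxycycline. Rescaled values were 5.78, 2.54 and 3.22 FPKM without doxycycline, 1.72, 2.03 and 1.38 at 3 h, 1.94, 1.42 and 0.794 at 6 h, 1.09, 1.04 and 0.819 at 24 h, and 0.510, 0.667 and 0.513 at 48 h. All later libraries lay below the 3 without doxycycline. On the rescaled scale FOS was the 1 of 6 subunits called at 24 h (log2 change -1.23, SE 0.276, adjusted p = 0.0225), where 0.586% of genes were called lower. That call was lost without library 0 of the group with no doxycycline or without any 1 of the 24 h libraries, with a pseudocount of 0.1 FPKM (adjusted p = 0.0657) and with only the libraries compared (adjusted p = 0.0561).

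Unnormalised FOS was 3.84, 2.58 and 2.43 FPKM without doxycycline, 1.45, 0.701 and 0.592 at 6 h, 1.28, 0.601 and 0.568 at 12 h, 1.02, 0.791 and 0.7997 at 24 h, and 0.983, 0.869 and 1.49 at 48 h. All libraries from 6 h on lay below the 3 without doxycycline on this scale too. It was called lower at 6 h (log2 change -1.05, SE 0.200, adjusted p = 0.0271), where 0.472% of genes were, at 12 h (-1.13, adjusted p = 0.00371), where 3.33% were, and at 24 h (-1.06, adjusted p = 0.00122), where 13.6% were. At 48 h it was -0.90 (SE 0.200, adjusted p = 0.00243). On the median-centred scale the 6 h change was -1.26 and not called (adjusted p = 0.0991). Without library 1 of the group with no doxycycline these 4 values were -1.12, -1.19, -1.13 and -0.96, all called. The genes nearest to FOS over the 5 later times on the rescaled scale were EGR1 (root mean square difference 0.338), GPM6B (0.395) and DOC2A (0.403). EGR1, another early response gene, fell from 10.7 to 1.48 rescaled FPKM at 48 h (log2 change -2.20). On that scale the median gene changed by -1.36 at 48 h and 93.3% of genes were called lower, a shift that enters every course compared. The summed unnormalised FPKM of the early response list was 462 to 534 without doxycycline, 372 to 383 at 24 h and 359 to 379 at 48 h, and the part of handling in the fall of FOS was not tested.

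**Figure D5:**
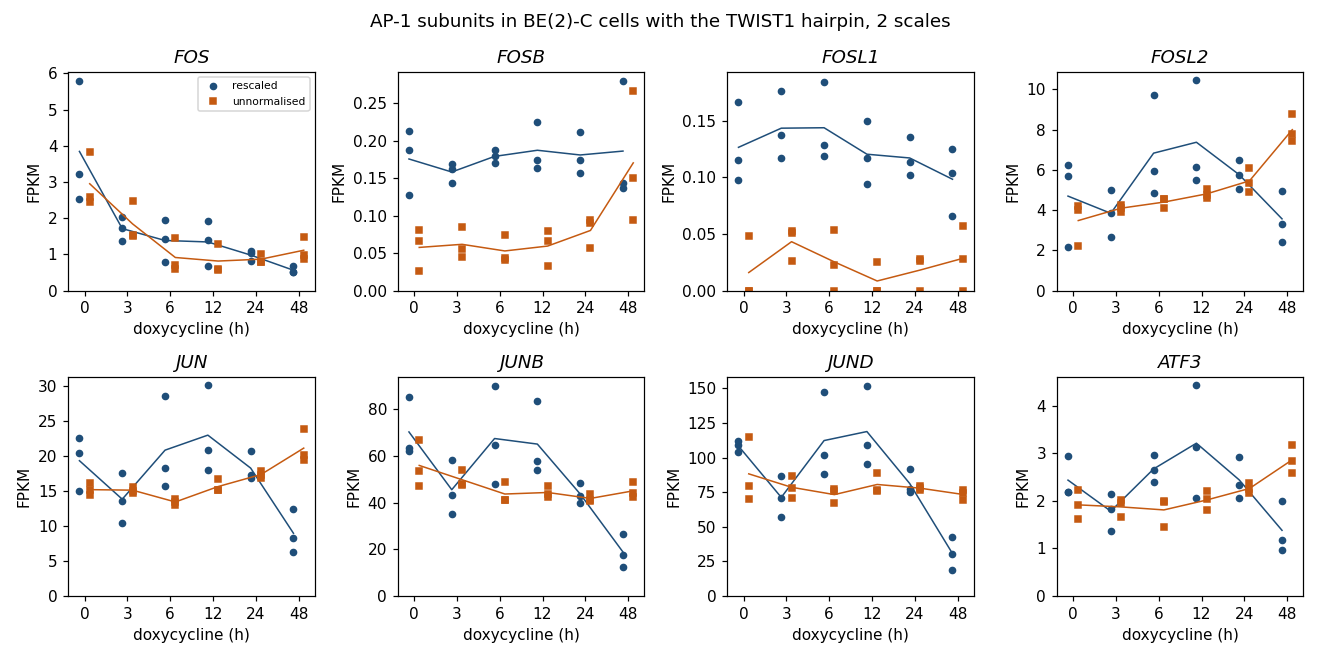
FPKM of each AP-1 subunit in BE(2)-C cells with the TWIST1 hairpin, without doxycycline (drawn at 0) and after 3, 6, 12, 24 and 48 h, 1 panel per gene, on the spike-in rescaled (circles) and the unnormalised scale (squares). Points are libraries, lines join the means, and the times are evenly spaced and not to scale; rescaled FOS is below all control libraries from 3 h on, and at 48 h mean JUN is lowest on the rescaled scale and highest on the unnormalised scale.

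At 48 h 4 of the 6 tested subunits were called lower on the rescaled scale: JUNB (log2 change -1.89, SE 0.341, adjusted p = 4.66e-05), JUND (-1.86, SE 0.338, adjusted p = 5.11e-05), FOS (-1.58, SE 0.276, adjusted p = 3.61e-05) and JUN (-1.06, SE 0.327, adjusted p = 0.00389). These calls stand beside 93.3% of all tested genes called lower and a median gene at -1.36; the median of the subunits was -1.32. All 4 calls held with each library left out in turn. FOSL2 (-0.26, 95% interval -0.95 to 0.42, adjusted p = 0.439) and ATF3 (-0.55, 95% interval -1.09 to 0.00078, adjusted p = 0.0536) were not called. Over the course 4 of 6 subunits passed the test of any change on the rescaled scale (FOS, JUN, JUNB and JUND), beside 96.0% of genes, and a different 4 on the unnormalised scale (FOS, FOSL2, JUN and ATF3), beside 32.8% of genes. From 24 to 48 h JUN, JUNB and JUND were called lower, beside 92.3% of genes.

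The unnormalised scale gave a different picture at 48 h. FOSL2 was 4.01, 2.22 and 4.20 FPKM without doxycycline and 7.79, 7.42 and 8.77 at 48 h, and every 48 h library lay above every control. FOSL2 rose by 1.03 on the log2 scale (SE 0.136, adjusted p = 2.59e-05), JUN by 0.45 (SE 0.0680, adjusted p = 0.000107) and ATF3 by 0.41 (SE 0.0993, adjusted p = 0.00432), so that 3 of 6 subunits were higher where 18.1% of genes were. Against the median gene of the rescaled table (median centring) they were also higher, by 1.16, 0.36 and 0.88, where 30.6% of genes were called higher. On the unnormalised scale FOSL2 was the 1 subunit already higher at 24 h (0.55, adjusted p = 0.0081), where 9.55% of genes were called higher. Without library 1 of the group with no doxycycline that change was 0.33 (adjusted p = 0.0027).

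JUN was 14.4, 16.1 and 15.1 unnormalised FPKM without doxycycline and 20.1, 19.4 and 23.9 at 48 h, with no overlap. ATF3 was 1.91, 2.22 and 1.62 and then 2.58, 2.85 and 3.17, again with no overlap. Without library 1 of the group with no doxycycline the 48 h changes were 0.81 for FOSL2 (SE 0.0760, adjusted p = 5.82e-07), 0.49 for JUN and 0.48 for ATF3, all called higher, and JUN was then called at 24 h too (0.22, adjusted p = 0.0184).

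Lower on the unnormalised scale at 48 h were 2 of 6 subunits, FOS and JUNB, where 21.3% of genes were. JUNB was 53.7, 67.0 and 47.1 FPKM without doxycycline and 44.1, 42.4 and 48.6 at 48 h, and the groups overlapped. Its change was -0.40 (adjusted p = 0.0126) at 24 h and -0.29 (SE 0.105, adjusted p = 0.0372) at 48 h, and without library 1 it was -0.26 (adjusted p = 0.0205) and -0.16 (adjusted p = 0.125), so that the 48 h call was lost. JUND was 70.4, 115 and 79.3 FPKM without doxycycline and 76.2, 69.6 and 74.3 at 48 h (-0.23, adjusted p = 0.19), and -0.027 without library 1, the one at 115.

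FOSB and FOSL1 stayed at the bottom in BE(2)-C cells. Unnormalised FOSB was 0.0809, 0.0660 and 0.0259 FPKM without doxycycline and 0.0935, 0.266 and 0.151 at 48 h, and FOSL1 lay between 0 and 0.0571 in all 18 libraries. Every 48 h value of unnormalised FOSB lay above those without doxycycline, and this difference was not tested on that scale. On the rescaled scale, where FOSB was 0.175 ± 0.0436 FPKM without doxycycline and 0.186 ± 0.0805 at 48 h (n = 3 each), neither gene was called in the test with no filter on low values.

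Within a library, FOSL2 to JUND went from 0.0434 ± 0.0205 without doxycycline to 0.118 ± 0.00915 at 48 h (n = 3 each) and JUN to JUND from 0.178 ± 0.0355 to 0.297 ± 0.0293, each with no overlap (exact permutation p = 0.1, the smallest possible, 0.143 adjusted). The lowest control value of FOSL2 to JUND, 0.0197, was that of library 1, and its partners stood at 0.0556 and 0.0547. Library 1 was also lowest in JUN to JUND, at 0.138 beside 0.202 and 0.196. From the unnormalised table the ratio of FOSL2 to JUND went from 0.0431 ± 0.0207 to 0.109 ± 0.00814. JUNB to JUND stood at 0.647 ± 0.1001 and 0.619 ± 0.0368 (exact permutation p = 0.9). Of the summed FPKM of the FOS family on the rescaled scale, FOS made up 44.2% ± 8.14 without doxycycline and 13.3% ± 2.71 at 48 h. FOSL2 made up 51.9% ± 9.77 and 80.2% ± 2.72, with no overlap in either share (exact permutation p = 0.1). Without doxycycline the FOS share was 50.9% in library 1 and 46.6% and 35.2% in its partners. The FOSL2 share was 43.1% in library 1 and 50.3% and 62.4% in its partners.

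Among the AP-1 network at 48 h on the rescaled scale 16 of 17 tested relatives, 28 of 28 MAP kinase and serum response genes, 15 of 15 textbook AP-1 targets and 16 of 16 early response genes were called lower, where 93.3% of all genes were, with medians of -1.22, -1.43, -1.62 and -1.50 beside -1.36 for all genes. On the unnormalised scale 4, 5, 5 and 6 of them were called lower and 4, 2, 2 and 1 higher, where 21.3% of all genes were lower and 18.1% higher. The membrane protease gene MMP14, a textbook target, fell on both scales, from 7.92 to 0.660 rescaled FPKM (log2 change -2.42) and from 6.35 to 1.33 unnormalised FPKM (-1.66, adjusted p = 3.19e-09). The chemokine gene CCL2 fell by 2.05 on the rescaled and by 1.23 on the unnormalised scale, and the early response gene KLF2 by 2.43 and 1.37. JDP2, a JUN-binding repressor, fell by 1.22 and 0.60. None of the genes of these lists that were called higher on the unnormalised scale is named here.

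Of 12 adrenergic markers 11 were called lower on the rescaled scale at 48 h, the background share there, and 2 lower and 6 higher on the unnormalised scale, beside the 21.3% and 18.1% of all genes. All 5 tested mesenchymal markers, TWIST1 among them, were lower on the rescaled scale, and 4 were lower and 1 higher on the unnormalised scale. The summed unnormalised FPKM of all 12 listed mesenchymal markers was 875 and 804 in libraries 0 and 2 without doxycycline and 1391 in library 1. At 48 h it was between 627 and 636. The epithelial, endothelial, blood and glial lists had 1 tested gene each, of which KRT19, CDH5 and S100B were lower on the rescaled scale. The blood gene, HBB, passed the filter only through 1 library of 3 h, at 38.4 unnormalised FPKM, and was at 0.189 or less at all other times. The part of these genes in the subunits' changes was not tested.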

How the data were processed

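Polyadenylated RNA of 38 libraries was analysed, made as stranded libraries after cells had been counted and ERCC spike-in RNA had been put into the lysate, per the labels' protocols. HISAT, Cufflinks 2.0.0 and the build hg19 are named in the submitters' processing notes. For each experiment the authors deposited FPKM per gene in 2 tables, raw and normalised; the method of rescaling to the spike-ins is not given in any source used here. Values listed at 0 in the unnormalised tables stand near 0.1 in the rescaled ones. FPKM hold no read number, so the depth behind a value is unknown and the spread between libraries stands in for it. All value columns matched a sample group (0 left over).

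With R 4.3.3 and limma 3.58.1, log2(FPKM + 1) of genes with a mean of at least 1 unnormalised FPKM was fitted with 1 mean per time and moderated variances with an intensity trend, over all libraries of an experiment. Changes are later minus earlier, and adding 1 FPKM understates those of low genes. A gene was called at an adjusted p under 0.05 (Benjamini-Hochberg over all tested genes), and intervals are 95%. Ratios within libraries were compared by two-sided exact permutation tests. The model was tested on simulated data with independent noise for each gene and library. The simulation held no shift shared by all genes of a library, so it does not cover errors of rescaling. Python 3.11.15 served for summaries (pandas 2.3.3, numpy 2.4.6) and figures (matplotlib 3.10.9).

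Named genes were the 8 subunits, MYCN and TWIST1, up to 4 genes per list with the smallest adjusted p at the latest time, and the 3 genes nearest to each subunit called at 2 or more times; ATF2 was added after its values were seen. The 10 gene lists are relatives of the basic leucine zipper class, the MAP kinase and serum response pathway, textbook AP-1 targets, early response genes, and adrenergic, mesenchymal, epithelial, blood, endothelial and glial markers. The subunits and lists were chosen with earlier results of these data known. Alternatives were the unnormalised table, centring each library on its median gene, a pseudocount of 0.1 FPKM, no filter on low values, only the libraries compared, each library left out in turn and a replicate block.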

Additional observations from a re-analysis of the deposited data

How the results depend on the processing

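In SHEP-21N cells the direction of the 24 h changes held under every setting run, and the counts of subunits called lower moved. On the unnormalised scale and on the median-centred scale alike the counts were 1 at 2 h, 5 at 4 h, 5 at 6 h, 5 at 8 h and 3 at 16 h. On the centred scale 0.27%, 13.6%, 24.1%, 23.1% and 25.4% of genes were lower at these times. For 24 against 8 h both scales gave 3, beside 19.2% (unnormalised) and 16.1% (centred) of genes. At 16 h 1 was higher on the unnormalised scale only. Between neighbouring times these 2 scales gave 3 and 2 lower from 2 to 4 h, beside 8.5% and 4.43% of genes. From 4 to 6 h they gave 3 and 2 lower, beside 10.3% and 5.28%, and from 6 to 8 h 1 and 1 higher, beside 2.5% and 1.39%. From 8 to 16 h each gave 1 lower, beside 13.2% and 14.1%, and 3 higher, beside 15% and 11.5%. With no filter on low values 2 were lower at 8 h, beside 2.17% of genes, and 2 higher from 8 to 16 h, beside 2.08%. With only the libraries compared 5 were lower at 6 h, 3 at 8 h and 2 from 16 to 24 h. For that setting and with 1 library left out, in both models, the share of all genes called is not given. Those counts are therefore not read as results about the subunits. With 1 library left out the counts were 0 to 3 at 6 h, 0 to 3 at 8 h, 0 to 2 at 16 h and 2 to 5 at 24 h, 0 to 1 higher from 8 to 16 h, 2 to 4 lower from 16 to 24 h and 0 to 5 for 24 against 8 h; the 24 h count of 2 came without 0 h library 2. Changes that were not called turned sign when 1 library was left out: at 2 h FOSL1 ran from -0.082 to 0.18, FOSL2 from -0.19 to 0.063 and JUND from -0.14 to 0.21, and at 16 h FOSL2 from -0.10 to 0.16, JUN from -0.020 to 0.32 and JUND from -0.26 to 0.10. In BE(2)-C cells the unnormalised and the centred scale turned calls or signs. On them 1 subunit was lower at 12 h, 2 lower and 1 higher at 24 h, and 2 lower and 3 higher at 48 h. On the centred scale 1.99% of genes were lower at 12 h, and 9.81% lower and 8% higher at 24 h. At 48 h 21.9% were lower and 30.6% higher on that scale. From 24 to 48 h 0 subunits were lower on both scales, beside 1.84% (unnormalised) and 7.27% (centred) of genes. In that step 1 and 2 were higher, beside 1.35% and 15.8%. At 6 h 1 was lower on the unnormalised scale and with only the libraries compared. With only the libraries compared 0 were lower at 24 h and 5 from 24 to 48 h, and a pseudocount of 0.1 FPKM gave 0 lower at 24 h. Signs turned, unnormalised and centred, for FOSL2 at 3 h (0.22 and 0.25), JUN at 6 h (-0.17 and -0.19), JUND at 6 h (-0.24 and -0.25), ATF3 at 6 h (-0.055 and -0.17), JUND at 12 h (-0.10 and -0.084), JUN at 24 h (0.18 and 0.19), and at 48 h FOSL2 (1.03 and 1.16), JUN (0.45 and 0.36) and ATF3 (0.41 and 0.88), and for ATF3 at 3 h on the centred scale (0.12). With 1 library left out 0 to 1 were lower at 24 h and 3 to 5 from 24 to 48 h, and the following ran across 0 with no call: FOSL2 at 3 h from -0.55 to 0.046, at 6 h JUN from -0.16 to 0.25, JUNB from -0.32 to 0.13 and JUND from -0.19 to 0.18, at 12 h JUNB from -0.31 to 0.025 and JUND from -0.082 to 0.25, and at 24 h FOSL2 from -0.049 to 0.55, JUN from -0.23 to 0.055 and ATF3 from -0.10 to 0.10. The cause of these moves was not tested. Same-numbered libraries had a median correlation of deviations of -0.021 (7 of 57 pairs over 0.1) in SHEP-21N and 0.009 (5 of 45) in BE(2)-C cells. These correlations cannot show whether the column number pairs cultures or batches. With that number as a replicate block, chosen after seeing the data, 0 subunits were lower at 16 h (JUNB -0.90, adjusted p = 0.0595) and 0 for 24 against 8 h in SHEP-21N cells, and ATF3 was called at 48 h in BE(2)-C cells (-0.55, adjusted p = 0.0186). The unnormalised fit without BE(2)-C library 1, also chosen after seeing the data, changes both scale and library. Leaving the library out turned the sign on that scale of JUN (0.034), JUND (0.066) and ATF3 (0.056) at 3 h and JUND (0.059) at 24 h. Also turned, to the sign of the rescaled fit, were FOSL2 (-0.0040) at 3 h, ATF3 (0.020) at 6 h and JUND (0.10) at 12 h. JUN (-0.13) and JUND (-0.031) at 6 h, JUN (0.22) at 24 h, and FOSL2 (0.81), JUN (0.49) and ATF3 (0.48) at 48 h differ in sign from the rescaled fit but not from the unnormalised fit of all libraries. The unnormalised fit without library 1 gave 1 subunit lower and 3 higher at 48 h and 2 lower and 2 higher at 24 h. The share of all genes called in that fit is not given either.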
